A study of Rattus norvegicus with 9 samples.

Results

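The expression of 10 genes of the lysosome was followed in knee cartilage of rats: the cathepsins Ctsa, Ctsb, Ctsd, Ctsh, Ctsl, Ctss, and Ctsz, the membrane proteins Lamp1 and Lamp2, and Psap, which encodes prosaposin. They were chosen by gene name, and each name stood on 1 of the 32043 entries of the gene table. All 10 passed the filter of a mean FPKM of at least 0.5 over the 9 libraries, as did 13898 genes in total. FPKM are fragments scaled by gene length and by library size, so levels can be compared between genes.

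RNA was sequenced from cartilage of male Sprague–Dawley rats, bought at 8 weeks of age, in 3 groups of 3 libraries. The control group had a sham operation, in which the capsule of the left knee was opened and closed again. In the model group, knee osteoarthritis (KOA) was induced by the modified Hulth method, in which knee ligaments and the medial meniscus are taken out and the rats are then made to exercise, and the SYD-H group had the same operation followed by 4 weeks of gavage with the high dose of an extract of Shengyu decoction (SYD), an herbal prescription. The knees were sampled 8 weeks after the operation. The labels give the treatment as SYD without a dose, their library names start with CXTB, an abbreviation that is not explained and that resembles CXB, the name of a separate drug-treated group of the study, and the methods of the study name only control and model rats for sequencing. SYD-H is the name its results give the sequenced treated group, and it is used here on that basis. All 3 groups had an operated joint, and no group without surgery was analysed here. The label for RNA extraction names retina, whereas the tissue label is cartilage, and 8 photoreceptor markers summed to at most 3.5 FPKM in any library. Nothing in the labels says that the libraries of a group came from separate animals, so p-values measure the spread between these libraries only.

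Lysosomes are acidic compartments in which proteins, lipids, and glycans taken up or discarded by the cell are broken down. Cathepsins are proteases that work there and, when secreted, can cut matrix proteins such as collagen and aggrecan, which is why they are studied in arthritic cartilage and in bone resorption. LAMP1 and LAMP2 are heavily glycosylated proteins of the lysosomal membrane, prosaposin is the precursor of the saposins that help enzymes reach their lipid substrates, and many lysosomal genes are controlled by TFEB and its relatives through an E-box known as the CLEAR element.

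The set of RefSeq promoters (GRCr8) used here held 8 of the 10 genes, and not Ctsb and Psap. The promoters of Lamp1 and Lamp2 are shown because both encode the abundant lysosomal membrane proteins and their levels moved together over the libraries, and that of Ctsd because it was the only other one of the 8 with an E-box. Each run gives the 250 bases before the annotated start, 5′ to 3′ in the direction of the gene, with the E-box CACGTG in capitals.
Lamp1, chr16:83075064-83075313, minus strand: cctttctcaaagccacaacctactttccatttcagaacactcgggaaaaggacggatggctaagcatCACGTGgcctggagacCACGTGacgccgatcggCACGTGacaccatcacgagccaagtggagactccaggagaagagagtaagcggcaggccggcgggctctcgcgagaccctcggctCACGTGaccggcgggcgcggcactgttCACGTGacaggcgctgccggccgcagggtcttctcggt
Ctsd, chr1:206968822-206969071, minus strand: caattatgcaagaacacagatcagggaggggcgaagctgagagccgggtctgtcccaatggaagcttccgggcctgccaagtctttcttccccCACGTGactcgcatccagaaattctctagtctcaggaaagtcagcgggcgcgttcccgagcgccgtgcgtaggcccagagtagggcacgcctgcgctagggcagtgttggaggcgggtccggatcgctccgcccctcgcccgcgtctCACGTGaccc
Lamp2, chrX:122087674-122087923, minus strand: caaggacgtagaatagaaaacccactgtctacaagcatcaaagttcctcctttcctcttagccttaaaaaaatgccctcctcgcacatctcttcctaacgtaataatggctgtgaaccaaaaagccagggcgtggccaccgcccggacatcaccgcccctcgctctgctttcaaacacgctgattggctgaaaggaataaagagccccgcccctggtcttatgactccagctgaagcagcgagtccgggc
The search covered 300 bases, from 250 before to 50 after the start, and the motif reads the same on both strands. Lamp1 held 5 copies, with their first base 183, 167, 150, 65, and 38 bases before the start, and Ctsd held 2, at 157 and 10 bases. The E-box was absent from this window of Lamp2, Ctsa, Ctsh, Ctsl, Ctss, and Ctsz, and 6.42% of all 33469 promoters held it. The longer form, GTCACGTG or CACGTGAC, which contains the E-box, was found at 4 of the 5 copies in Lamp1 and at both in Ctsd, against 1.85% of all promoters with at least 1 such site. Of 64 promoters of other lysosomal genes, 15 (23.4%) held the E-box and 13 (20.3%) the longer form. Lamp1 was the only 1 of all 33469 promoters with 5 or more copies. Such a match describes the letters only, and no binding was measured.

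Depth and composition differed between the libraries. Whole reads recovered from the FPKM summed to 14914121 to 19510537 per library. Reads on genes of the mitochondrial genome made up 4.05% to 4.86% in the control group, 90.7%, 39.5%, and 81.4% in model libraries 1, 2, and 3, and 23.7%, 34.7%, and 72.7% in SYD-H libraries 1, 2, and 3. Reads on other genes numbered 1744769 and 3611325 in model libraries 1 and 3 and at least 5153851 elsewhere. The number of reads on 1 of the 10 genes ranged from 55 (Lamp2, model library 1) to 23866 (Psap, control library 3). The 13 chondrocyte markers, such as Col2a1 and Acan, summed to 500 to 12040 FPKM in control, 176 to 923 in model, and 172 to 1568 in SYD-H libraries, and at most 2 of the 13 were at 0 in any library (Matn3, Col9a2, and Cnmd, in model or SYD-H libraries). Of the 13, 9 were called lower in model than in control by the criteria below, beside 11.2% of all genes. The median log2 fold change of the 13 was −3.50, and 0 of the 13 had an adjusted p under 0.05 in limma. Control library 2 had a smaller sum of these markers (500 FPKM) than model library 1 (923). In such bulk samples, fewer cells of a type and less RNA per cell cannot be told apart.

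Psap and Ctsb had the highest mean levels in each group. In the control group, the mean level was 242 ± 8.37 FPKM for Psap and 226 ± 28.1 for Ctsb (SD, n = 3 for this and all group means). Ctsd followed at 78.1 ± 3.06, then Ctsz (64.5 ± 1.20), Ctsh (61.6 ± 4.07), Lamp1 (54.2 ± 6.23), Ctsa (39.2 ± 3.33), Ctsl (20.7 ± 5.44), Ctss (18.4 ± 1.05), and Lamp2 (9.57 ± 1.53). Neighbours in this order whose control libraries overlapped were Psap and Ctsb, Ctsz and Ctsh, Ctsh and Lamp1, and Ctsl and Ctss. In the model group, Ctsb came first (299 ± 66.2) and Psap second (136 ± 48.4), with no overlap between them. Psap overlapped Ctsd at rank 3 and lay under it in model library 3 (84.2 against 92.7 FPKM). All neighbours from Ctsh at rank 4 to Lamp2 at rank 10 overlapped. In the SYD-H group, Ctsb (274 ± 66.4) and Psap (215 ± 42.8) overlapped, and Ctss (30.4 ± 12.9) and Lamp2 (15.1 ± 4.92), the lowest pair, did not.

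The control libraries lay close together, with a coefficient of variation from 1.86% (Ctsz) to 26.3% (Ctsl). In the model group it ran from 13.7% (Ctsd) to 104% (Lamp2), where the highest library was 7.06 times the lowest, and in the SYD-H group from 12.0% (Lamp1) to 48.7% (Ctsl). The summed FPKM of the 10 genes was 814 ± 10.2 in the control, 745 ± 68.9 in model, and 985 ± 203 in the SYD-H group.

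**Figure D1:**
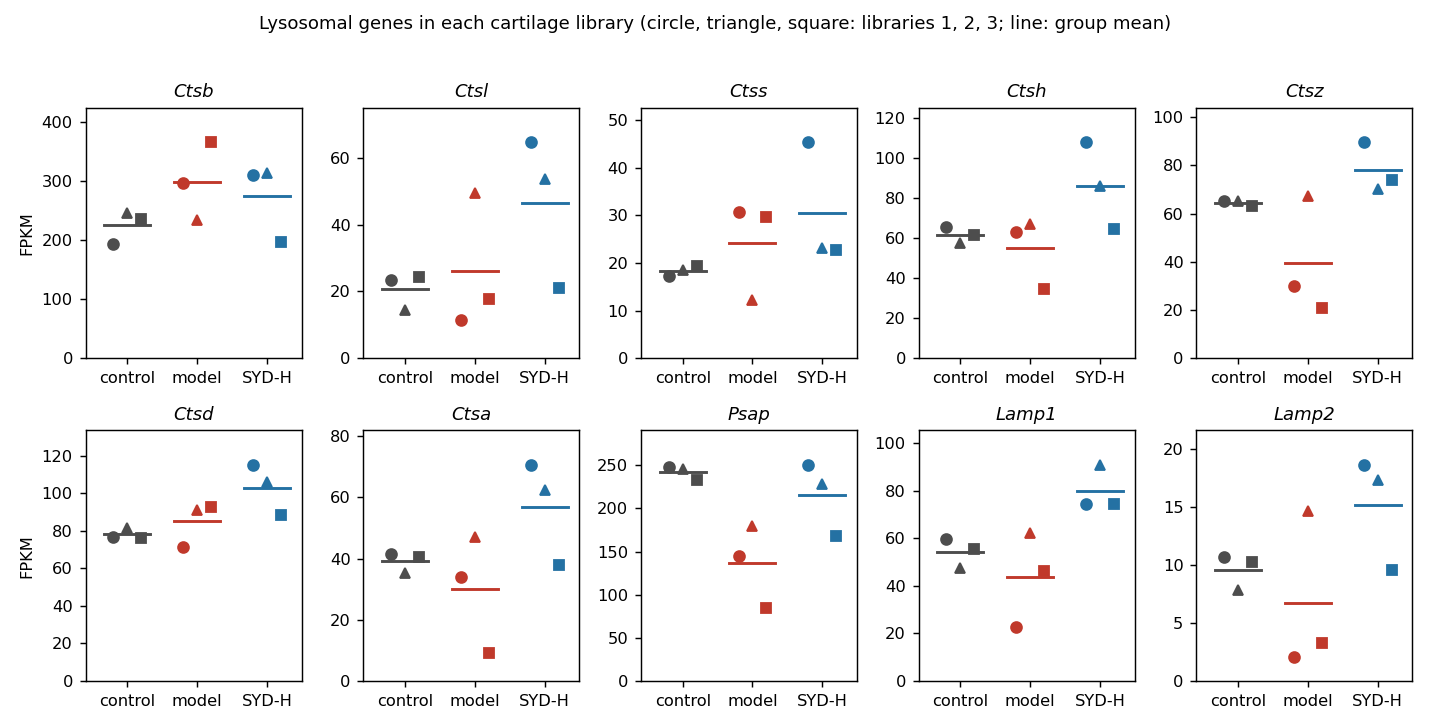
FPKM of the 10 genes (y axis, each panel from 0) in the 3 control, 3 model, and 3 SYD-H libraries, with 1 symbol per library and a line at the group mean. The control libraries form tight groups, model libraries 1 and 3 lie under the control libraries for Psap, Ctsz, Lamp1, and Lamp2, and the SYD-H libraries of Ctsz, Lamp1, Ctsd, and Ctss lie above all control libraries.

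To see how the KOA model and SYD bear on these genes, the 3 pairs of groups were compared with limma on log2(FPKM + 1). Genes were called DEGs by the criteria of the study, an unadjusted p under 0.05 with a log2 fold change over 1 in absolute size. Between model and control, 0 of the 10 genes met them, where 3.55% of all tested genes were called higher and 11.2% lower in the model group. The adjusted p (Benjamini-Hochberg over all tested genes) was under 0.05 for 0 of the 10 in limma and 2.59% of all genes, voom on the recovered reads also gave 0, and 1 member, Psap, had an unadjusted p under 0.05. The libraries of the 2 groups did not overlap for 1 member, again Psap, which was lower in the model group, as were 20.0% of all genes, while 8.65% were apart and higher.

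Between SYD-H and model, 1 of the 10, Ctsz, was called higher and 0 lower, against 3.62% and 0.532% of all genes. The adjusted p in limma was under 0.05 for 0 of the 10 and for 0% of all genes, 731 of which had an unadjusted p under 0.05, and voom gave 0 as well. Ctsz and Lamp1 had an unadjusted p under 0.05. Both were also apart and higher, as were 7.89% of all genes, with 3.17% apart and lower. Between SYD-H and control, 0 of the 10 were called, against 7.25% higher and 9.22% lower among all genes. An adjusted p under 0.05 was reached by 0 of the 10 in limma and in voom and by 17.3% of all genes in limma, a share that was 1.50% to 5.45% on leaving out 1 control library, 1.82% in 1 fit of all 9 libraries, and 0% with a replicate block (for model against control it was 0% without any 1 control library), and Lamp1 and Ctsd had an unadjusted p under 0.05. Ctsd, Ctss, Ctsz, and Lamp1 were apart and higher in SYD-H, 4 of 10, where 20.3% of all genes were so and 22.2% were apart and lower. A limma F-test over the 3 groups gave an adjusted p under 0.05 for 0 of the 10 and 2.32% of all genes. The smallest adjusted p of the limma F-test was that of Ctsz (adjusted p = 0.223).

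The median log2 fold change of the 10 genes was −0.31 between model and control, where the median of all tested genes was −0.23. It was 0.81 between SYD-H and model against 0.22 for all genes, and 0.47 between SYD-H and control against 0.00. With a pseudocount of 0.1 instead of 1 the median of all genes was −0.54 between model and control and that of the 10 genes −0.32, so that they lay above it instead of below, and 7 instead of 9 of the 10 lay above the median of all genes (0.46) between SYD-H and model. In the last 2 comparisons 9 of the 10 values were above 0, the exceptions being Ctsb against model and Psap against control, and in the first 4 were above 0. The comparisons share libraries, so their values are given side by side and not correlated. In 3 libraries against 3, an exact permutation test of a single gene cannot give a p below 0.1.

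**Figure D2:**
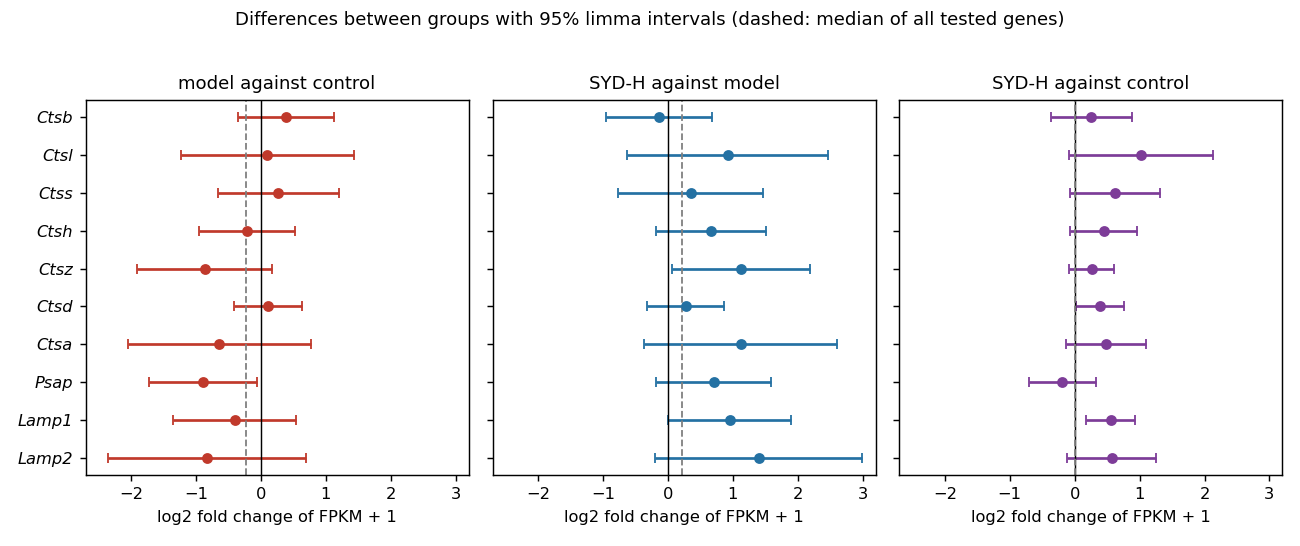
Log2 fold change of FPKM + 1 (x axis) of the 10 genes in the 3 comparisons, with 95% limma intervals as bars and a dashed line at the median of all 13898 tested genes. The intervals lie on 1 side of 0 for Psap between model and control, for Ctsz and Lamp1 between SYD-H and model, and for Lamp1 and Ctsd between SYD-H and control.

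Cathepsin B is a cysteine protease that can trim peptides from the end of a protein as well as cut within it. Ctsb (ENSRNOG00000010331) is placed at chr15:37389629-37410500 in the authors' table, whose build was not given. Its level was 194, 247, and 236 FPKM in control, 297, 234, and 366 in model, and 311, 314, and 198 in SYD-H libraries. The groups overlapped in each comparison, with model library 3 the highest of the 9 and control library 1 the lowest. The log2 fold change was 0.39 ± 0.31 (SE) between model and control, −0.13 ± 0.34 between SYD-H and model, and 0.26 ± 0.25 between SYD-H and control, with limma adjusted p-values of 0.545, 0.906, and 0.511.

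Cathepsin L is a strong endopeptidase of the same family and is able to cut collagen and elastin. Ctsl (ENSRNOG00000018566, chr17:764309-770548) was measured at 23.5, 14.4, and 24.2 FPKM in control, 11.4, 49.3, and 17.6 in model, and 64.7, 53.6, and 21.1 in SYD-H libraries. Model library 2 and SYD-H libraries 1 and 2, all under 50% mitochondrial reads, were the 3 highest. The other 6 lay between 11.4 and 24.2, among them the 3 control libraries, which were also under 50%. The log2 fold change was 1.02 ± 0.45 between SYD-H and control (limma adjusted p = 0.173) and 0.92 ± 0.64 between SYD-H and model (limma adjusted p = 0.723). Without SYD-H library 3, it was 1.50 against control (limma adjusted p = 0.0234). Rodents carry several close relatives of Ctsl, and the 10 such entries of the table were listed at 0 in all libraries.

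Cathepsin S, which is used by antigen-presenting cells to process the invariant chain, stays active at neutral pH. Ctss (ENSRNOG00000021157, chr2:183086437-183114483) stood at 17.3, 18.4, and 19.4 FPKM in control, 30.6, 12.2, and 29.6 in model, and 45.4, 23.2, and 22.7 in SYD-H libraries. All SYD-H libraries lay above the control libraries, and model library 2 was the lowest of the 9, opposite to its place for Ctsl. Between SYD-H and control the log2 fold change was 0.62 ± 0.28 (limma adjusted p = 0.180, two-sided exact permutation p = 0.1), and the other comparisons gave 0.27 ± 0.38 (model minus control) and 0.35 ± 0.46 (SYD-H minus model).

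Cathepsin H is an aminopeptidase, and cathepsin Z, also named cathepsin X, removes single residues from the carboxyl end. Ctsh (ENSRNOG00000014064, chr8:90608941-90627824) was at 65.7, 57.5, and 61.7 FPKM in control, 62.9, 67.0, and 34.6 in model, and 108, 85.8, and 64.5 in SYD-H libraries, with overlap in every comparison. Ctsz (ENSRNOG00000050697, chr3:163224875-163235645) was at 65.3, 65.1, and 63.2 FPKM in control, 29.9, 67.4, and 21.0 in model, and 89.7, 70.3, and 74.0 in SYD-H libraries. Model libraries 1 and 3 held at most 29.9 FPKM of Ctsz, well under any control library, whereas model library 2 lay above all 3. Between SYD-H and model, the log2 fold change of Ctsz was 1.13 ± 0.44 (95% interval 0.07 to 2.19, 2.18-fold on this scale, limma adjusted p = 0.723, two-sided exact permutation p = 0.1), higher in 3 of 3 SYD-H libraries than in any model library. The call was lost when any single library other than model library 2 was left out, with log2 fold changes of 0.77 without model library 3 and 1.02 to 1.20 without each of the others, from fewer libraries. It was also lost on rescaling to genes outside the mitochondrial genome (1.35), where Lamp1 was called instead (1.17), and with the libraries under 50% mitochondrial reads alone the log2 fold change was 0.23. Between model and control it was −0.87 ± 0.43 (limma adjusted p = 0.343), and −1.33 without model library 2 (limma adjusted p = 0.0169).

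Cathepsin D is the main aspartic protease of the lysosome, and cathepsin A is a serine carboxypeptidase that also protects β-galactosidase and neuraminidase in a complex. Ctsd (ENSRNOG00000020206, chr1:197527467-197539488), whose promoter holds the E-boxes at 157 and 10 bases, was at 76.8, 81.6, and 76.0 FPKM in control, 71.6, 90.9, and 92.7 in model, and 115, 106, and 88.3 in SYD-H libraries. Its coefficient of variation in the model group was the smallest of the 10, and all SYD-H libraries lay above the control libraries. The log2 fold change between SYD-H and control was 0.39 ± 0.15 (limma adjusted p = 0.129, two-sided exact permutation p = 0.1). Ctsa (ENSRNOG00000015857, chr3:153568381-153576215) was at 41.6, 35.4, and 40.5 FPKM in control, 34.1, 47.2, and 9.10 in model, and 70.6, 62.3, and 37.9 in SYD-H libraries. Model library 3, with 249 reads on Ctsa, was the lowest by far, and the log2 fold change between SYD-H and model was 1.12 ± 0.62 (limma adjusted p = 0.723).

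Psap (ENSRNOG00000000571, chr20:28214271-28240498) was the member whose model libraries were all under the control libraries. It stood at 248, 246, and 233 FPKM in control, 144, 180, and 84.2 in model, and 250.5, 228, and 168 in SYD-H libraries. The SYD-H libraries overlapped those of both other groups. The log2 fold change was −0.89 ± 0.34 between model and control (95% interval −1.73 to −0.06, limma adjusted p = 0.231, two-sided exact permutation p = 0.1, lower in 3 of 3 model libraries). It was 0.70 ± 0.37 between SYD-H and model (limma adjusted p = 0.723) and −0.19 ± 0.21 between SYD-H and control (limma adjusted p = 0.554). With model library 2 as the only model library, the one under 50% mitochondrial reads, the value between model and control was −0.43. On rescaling to genes outside the mitochondrial genome or with quantile normalization it was −1.13 or −1.24, and Psap was called lower.

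LAMP1 and LAMP2 form much of the inner coat of the lysosomal membrane, and LAMP2 is also needed for the fusion of autophagosomes with lysosomes. Lamp1 (ENSRNOG00000019629, chr16:76355984-76381883), with the 5 E-boxes printed above, was at 59.6, 47.3, and 55.5 FPKM in control, 22.9, 62.3, and 46.3 in model, and 74.4, 90.9, and 74.3 in SYD-H libraries. Every SYD-H library lay above every control and every model library. The log2 fold change was 0.96 ± 0.39 between SYD-H and model (95% interval 0.01 to 1.90, limma adjusted p = 0.723) and 0.55 ± 0.16 between SYD-H and control (95% interval 0.17 to 0.93, limma adjusted p = 0.0616), while model against control gave −0.40 ± 0.39. Lamp2 (ENSRNOG00000000164, chrX:117057606-117260522) was at 10.7, 7.83, and 10.2 FPKM in control, 2.07, 14.7, and 3.28 in model, and 18.6, 17.3, and 9.52 in SYD-H libraries. Model libraries 1 and 3 held 55 and 159 reads of Lamp2 and were the 2 lowest, whereas model library 2 lay above the control libraries. The log2 fold change of Lamp2 was the widest of the 10 between SYD-H and model, 1.40 ± 0.66 (limma adjusted p = 0.723), and that between model and control was −0.83 ± 0.63 (limma adjusted p = 0.530).

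Calls depended on which libraries entered, and the libraries differed in their mitochondrial share. Within the model group, the 2 libraries with the larger shares held the lowest levels of 7 of the 10 genes (Ctsa, Ctsh, Ctsl, Ctsz, Psap, Lamp1, and Lamp2) and the highest of Ctsb and Ctss, and Ctsd was at 71.6, 90.9, and 92.7 FPKM in model libraries 1, 2, and 3. Without model library 2, the one with the smallest share in its group, 3 members were called lower in the model group than in the control group (Ctsz, Lamp2, and Psap), as were 18.4% of all genes. In that setting 3 members (Ctsz, Lamp2, and Ctss, the last one higher in the model) and 18.9% of all genes had a limma adjusted p under 0.05. Likewise 4 members were called higher in SYD-H than in model (Ctsl, Ctsz, Lamp1, and Lamp2), against 13.8% of all genes, 0 of the 4 with an adjusted p under 0.05. Without SYD-H library 3, the one with the largest share in its group, Ctsa, Ctsd, Ctsh, Ctsl, and Lamp2 had a limma adjusted p under 0.05 and were higher in SYD-H than in control, as did 12.2% of all genes, and Ctsl was called higher, as were 8.86% of all genes. With only the libraries under 50% mitochondrial reads, which leaves 1 model library whose spread is taken from the other group, Ctsa, Ctsh, Ctsz, Lamp1, and Lamp2 were above the control mean in the model (log2 fold change 0.27, 0.12, 0.06, 0.21, and 0.58), the opposite sign to that with all libraries. The part of the mitochondrial share in the group differences was not tested.

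The scaling of the libraries also set some directions. The deposited FPKM had been scaled between libraries by the authors, and rescaling to TPM, which counts mitochondrial reads in each total, moved the median of all genes to −2.60 between model and control, 1.22 between SYD-H and model, and −1.31 between SYD-H and control. Relative to that median, 0, 10, and 9 of the 10 members lay above it, against 5, 9, and 9 with FPKM as deposited. TPM applies 1 factor per library, so a gene can change sides of the median only through the 1 added before the logarithm. Rescaling to the genes outside the mitochondrial genome gave 5, 8, and 9, quantile normalization 2, 10, and 9, and voom on the recovered reads 7, 8, and 9. At least 8 of 10 members lay above the median in the 2 comparisons with SYD-H under these 5 scalings. With the pseudocount of 0.1 the number was 7 between SYD-H and model. Between model and control it ran from 0 to 7. Like TPM, the rescaling outside the mitochondrial genome applies 1 factor per library, and voom used the authors' library sizes. Apart from low values and the voom weights, these could not move the 10 genes against other genes, so they do not test that place.

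**Figure D3:**
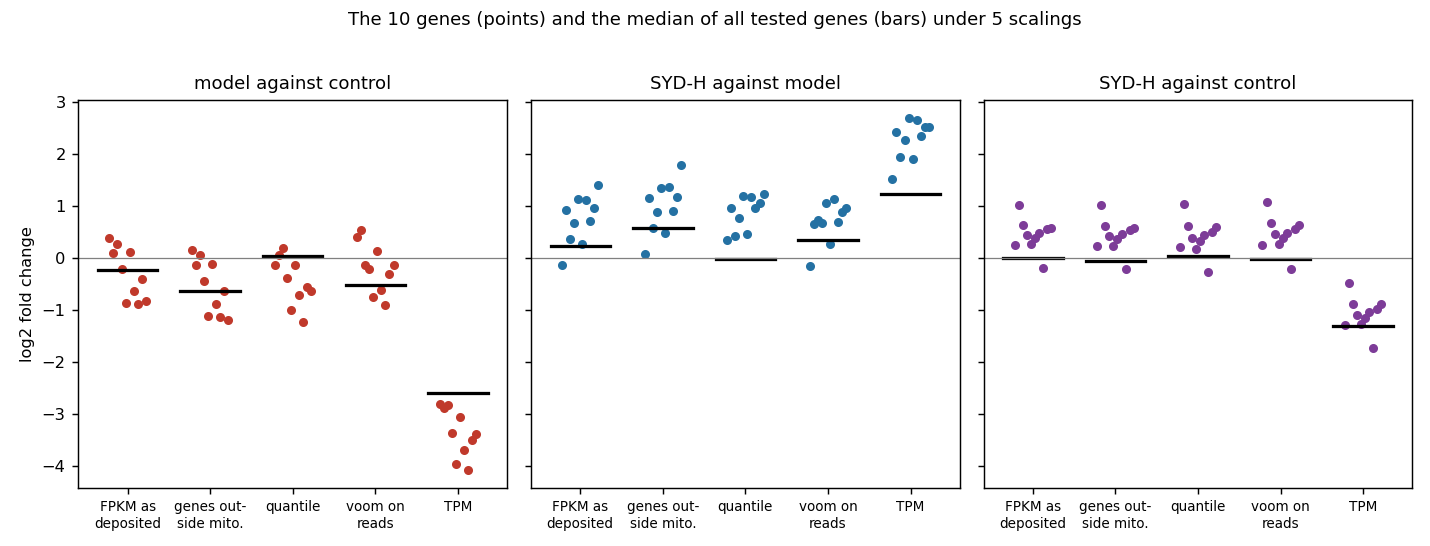
Log2 fold change (y axis) of the 10 genes (points) and median of all tested genes (black bars) under 5 scalings in the 3 comparisons. The bar drops to −2.60 with TPM between model and control, with the 10 points under it, whereas in the comparisons of SYD-H at least 8 of 10 points stay above the bar under each scaling.

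The share of each gene in the summed FPKM of the 10 does not depend on how libraries were scaled against each other. Psap took 30.9%, 30.0%, and 28.4% of the sum over the control libraries, 20.4%, 21.8%, and 12.0% over model libraries, and 21.8%, 21.7%, and 22.1% in SYD-H libraries. Its share was lower than in every control library in all 6 model and SYD-H libraries, by 11.7 percentage points in the model group and 7.91 in the SYD-H group (two-sided exact permutation p = 0.1 both times, the smallest possible). Ctsb took 24.1%, 30.1%, and 28.8% in the control, 42.0%, 28.4%, and 52.0% in model, and 27.1%, 29.9%, and 26.1% in SYD-H libraries, which overlapped in every comparison. As a result the FPKM of Ctsb was 0.781, 1.00, and 1.01 times that of Psap among control libraries, 2.05, 1.30, and 4.35 times among model libraries, and 1.24, 1.38, and 1.18 times in SYD-H libraries. The ratio lay above the control libraries in all 6 libraries of the model and SYD-H groups. The share of Ctsd was 9.60% ± 0.337 in the control, 11.4% ± 1.55 in model, and 10.6% ± 0.924 in the SYD-H group, and it did not overlap between the control and either of the other groups (two-sided exact permutation p = 0.1 both times), although on recovered reads instead of FPKM the SYD-H and control shares overlapped. The shares of the other 7 genes overlapped in all 3 comparisons, but on recovered reads that of Ctsh was higher in SYD-H (6.22%) than in control (5.44%) without overlap (two-sided exact permutation p = 0.1), and with 30 comparisons of shares in all, no p could pass an adjustment.

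**Figure D4:**
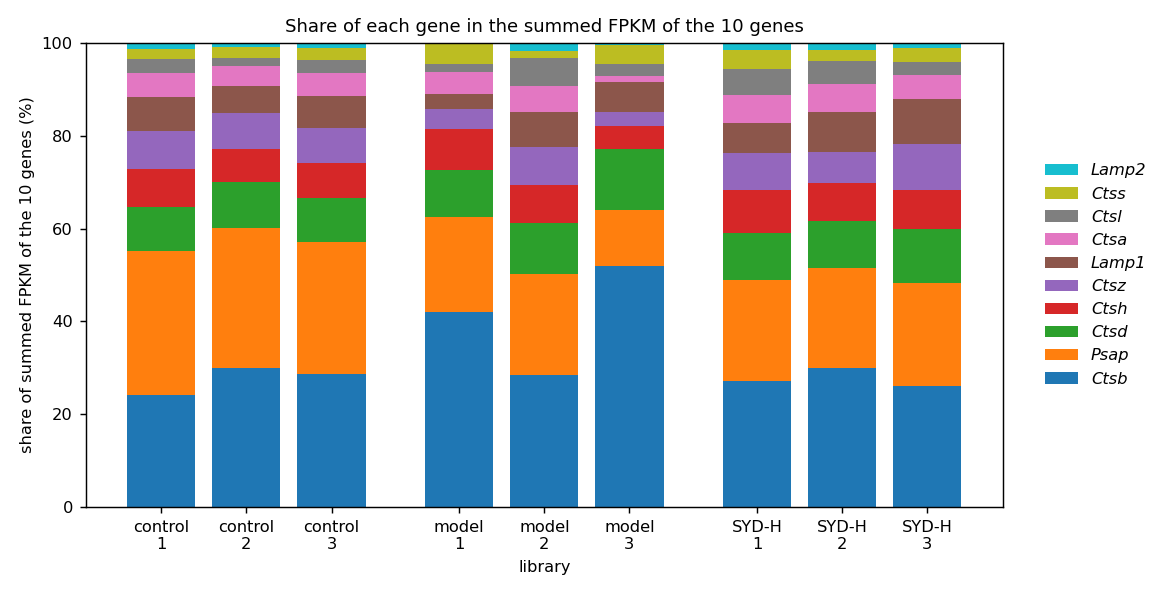
Share of each of the 10 genes in their summed FPKM (y axis, percent, bars from 0 to 100) in the 9 libraries, stacked by gene. Ctsb and Psap fill the lower part of each bar, the Psap segment is shorter in the 6 model and SYD-H libraries than in the control libraries, and Ctsb reaches 52.0% in model library 3.

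Across the 9 libraries, 34 of the 45 pairs of members had a positive Pearson r of log2(FPKM + 1), with a median of 0.464 and 8 pairs over 0.8. The closest pair was Ctsa and Ctsh (r = 0.955), followed by Ctsz and Lamp2 (0.896) and Lamp1 and Lamp2 (0.890). All negative pairs held Ctsb or Ctss. Ctsb had r of −0.540 to Ctsz and −0.476 to Psap, Ctss had −0.219 to Ctsz and −0.203 to Psap, and the r between Ctsb and Ctss was 0.638. These values describe libraries that share the same 3 groups and scaling. Among 3010 other genes averaging 10 FPKM or more, those whose levels were most like the mean of the 10 were Sbno2 (r = 0.970), Pttg1ip (0.955), Tcirg1 (0.953), Ddx17 (0.950), and Mxra8 (0.947). Tcirg1 encodes a subunit of the proton pump used by osteoclasts and is on the osteoclast marker list below.

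The same comparisons were set out for 79 other lysosomal genes in 7 lists, of which 77 were in the table and 74 were tested. Between model and control 4 of them were called higher and 8 lower, between SYD-H and model 10 higher and 0 lower, and between SYD-H and control 9 higher and 4 lower. Over all genes the shares called were 3.55% and 11.2%, 3.62% and 0.532%, and 7.25% and 9.22%. Their median log2 fold changes were −0.43, 0.80, and 0.32, beside −0.31, 0.81, and 0.47 for the 10 genes. With an adjusted p under 0.05 in limma there was 1 gene between model and control, 0 between SYD-H and model, and 12 higher and 4 lower between SYD-H and control, where 7.75% of all genes were higher and 9.57% lower by this measure.

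Among the 8 other cathepsins, the range exceeded that of the members. Ctsk, the collagen-cutting cathepsin of osteoclasts, was the most abundant, at 346, 251, and 430 FPKM in control, 364, 1071, and 204 in model, and 1507, 1067, and 1186 in SYD-H libraries. All SYD-H libraries lay above the control libraries, with a log2 fold change of 1.89 ± 0.32 (limma adjusted p = 0.0185). Values under TPM, given beside some genes, are to be read against the median of all genes in that scaling, −1.31 in this comparison, and that of Ctsk was 0.34. With quantile normalization the adjusted p of Ctsk was 0.0524 (limma). Ctsg, a serine protease of neutrophil granules, fell from 128 ± 37.1 FPKM in the control to 5.54 ± 5.80 in the SYD-H group, a log2 fold change of −4.62 ± 0.62 (limma adjusted p = 0.0116). Ctsg was also called lower in the model group (19.7 ± 16.9 FPKM) than in the control group (−3.14 ± 0.85, limma adjusted p = 0.117), and between SYD-H and model the value was −1.48 ± 1.00 (limma adjusted p = 0.723). The latter turned to 0.19 with voom, 0.12 under TPM (median of all genes 1.22), and 0.93 with the libraries under 50% mitochondrial reads. It stayed negative outside the mitochondrial genome (−1.45) and with quantile normalization (−1.49). Ctse, an aspartic protease of the endosomes of immune and epithelial cells, fell from 35.6 ± 10.7 to 3.82 ± 3.68 FPKM between the same groups (log2 fold change −3.14 ± 0.54, limma adjusted p = 0.0184), with 14.3 ± 12.6 in the model group. Of 10 tested neutrophil markers, 8 were called lower and 0 higher in SYD-H than in control, with a median log2 fold change of −2.36, beside 9.22% of all genes called lower. Of 9 B-cell markers 7 were called lower (median −2.91), and of 8 erythroid markers 5 (median −2.84). Between model and control 5 neutrophil, 6 B-cell, and 0 erythroid markers were called lower, with medians of −2.56, −2.42, and −1.90, beside 11.2% of all genes called lower. The part of these cells in the values of Ctsg, Ctse, and Cst7 was not tested. Lgmn, the asparaginyl endopeptidase that matures several cathepsins, had 26.8 ± 2.91, 34.2 ± 5.44, and 54.7 ± 18.6 FPKM in control, model, and SYD-H groups.

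Of the 29 lysosomal hydrolases, 1 was called higher and 3 lower in model than in control, 6 were called higher and 0 lower in SYD-H than in model, and 3 were called higher and 1 lower in SYD-H than in control, where 4 higher and 1 lower had a limma adjusted p under 0.05. The shares of all genes called in these comparisons stand above, and 3 of 29 lower in the model is near the 11.2% of all genes. Man2b1, which trims mannose from glycoproteins, fell from 38.2 ± 1.76 FPKM in the control to 8.97 ± 4.52 in the model group (log2 fold change −2.07 ± 0.36, limma adjusted p = 0.0452, and 0.0582 outside the mitochondrial genome and 0.0556 with quantile normalization), and had 23.8 ± 6.51 in the SYD-H group. Acp5, the tartrate-resistant phosphatase of osteoclasts, rose from 294 ± 93.5 FPKM in the control to 695 ± 72.5 in the SYD-H group (log2 fold change 1.29 ± 0.32, limma adjusted p = 0.0465, −0.26 under TPM). The adjusted p of Acp5 was 0.0587 outside the mitochondrial genome, 0.0634 with the libraries under 50% mitochondrial reads, and 0.104 with quantile normalization, where its log2 fold change of 0.98 also ended the call, and its level in the model group was 279 ± 211 FPKM. Arsb and Fuca1, which remove sulfate and fucose from glycans, had log2 fold changes of 1.25 ± 0.55 and 1.00 ± 0.39 between SYD-H and model (limma adjusted p = 0.723 for both), of which Fuca1 was called. Of 11 other membrane and lipid transfer proteins, 0 were called higher and 3 lower in model than in control (11.2% of all genes lower). In SYD-H, 3 were called higher and 0 lower than in model, and 2 higher and 0 lower than in control (3.62% and 7.25% of all genes higher). Cd63 and Npc2 rose between control and SYD-H by 1.10 and 1.01 on the log2 scale (limma adjusted p = 0.0298 and 0.0163), −0.44 and −0.52 under TPM. With quantile normalization Cd63 had a limma adjusted p of 0.0536 and Npc2 a log2 fold change of 0.97. Npc2 had 44.6 ± 2.19, 82.5 ± 8.71, and 91.4 ± 14.7 FPKM (control, model, and SYD-H), with log2 fold changes of 0.87 ± 0.20 between model and control (limma adjusted p = 0.0845) and 0.14 ± 0.25 between SYD-H and model (limma adjusted p = 0.857). Cd63 had 122 ± 26.9, 163 ± 88.9, and 260 ± 34.2 FPKM. Laptm4a was at 59.1 ± 21.3, 70.5 ± 49.2, and 116 ± 28.3 FPKM in control, model, and SYD-H groups.

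For the proton pump, which acidifies the lysosome, 1 of 14 subunits was called higher in model than in control and 0 in the other comparisons, but 3 had a limma adjusted p under 0.05 between SYD-H and control, all higher. Atp6v1b2 rose from 37.7 ± 2.84 to 57.1 ± 2.93 FPKM (log2 fold change 0.59 ± 0.12, limma adjusted p = 0.0280, −0.94 under TPM), with 37.4 ± 18.9 in the model group, and Atp6v0c and Atp6v0b had log2 fold changes of 0.46 ± 0.20 and 0.59 ± 0.18. Among the 6 sorting genes, which route enzymes to the lysosome by mannose 6-phosphate or sortilin, all had negative values between model and control, with 1 called lower, and all had positive values between SYD-H and model, with 0 called. M6pr, the small mannose 6-phosphate receptor, had 26.8 ± 2.73, 14.8 ± 10.4, and 28.6 ± 1.85 FPKM in control, model, and SYD-H groups, Gnptab 8.56 ± 1.57, 4.47 ± 5.90, and 11 ± 2.97, and Sort1 9.78 ± 0.188, 5.23 ± 3.57, and 7.84 ± 2.20.

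The transcription factors and the inhibitors had 3 tested genes each, and no difference between lists was tested. Tfeb stood at 5.83 ± 0.484, 6.44 ± 3.76, and 5.80 ± 3.36 FPKM in control, model, and SYD-H groups, and Tfe3 at 3.92 ± 0.226, 6.0 ± 1.09, and 6.57 ± 2.90. Mitf, their relative that is also used in osteoclasts, was called higher than control in both the model group (log2 fold change 1.33 ± 0.41, limma adjusted p = 0.154) and the SYD-H group (1.55 ± 0.18, limma adjusted p = 0.00975), and its value against control was −0.78 in the model under TPM. Cystatin B, encoded by Cstb, inhibits cysteine cathepsins within cells, and it was called higher than control in the model (1.27 ± 0.32, limma adjusted p = 0.0999) and SYD-H groups (1.27 ± 0.19, limma adjusted p = 0.0140), with −1.83 and −0.24 under TPM. Cst3, the secreted cystatin C, was at 219 ± 63.7, 321 ± 140.0, and 661 ± 339 FPKM, and was called higher in SYD-H than in control (1.51 ± 0.45, limma adjusted p = 0.0718). Cst7, or cystatin F of immune cells, fell between control and SYD-H by 2.10 on the log2 scale (limma adjusted p = 0.0198), with 11.9 ± 1.42, 6.58 ± 2.76, and 2.24 ± 1.49 FPKM (control, model, and SYD-H).

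**Figure D5:**
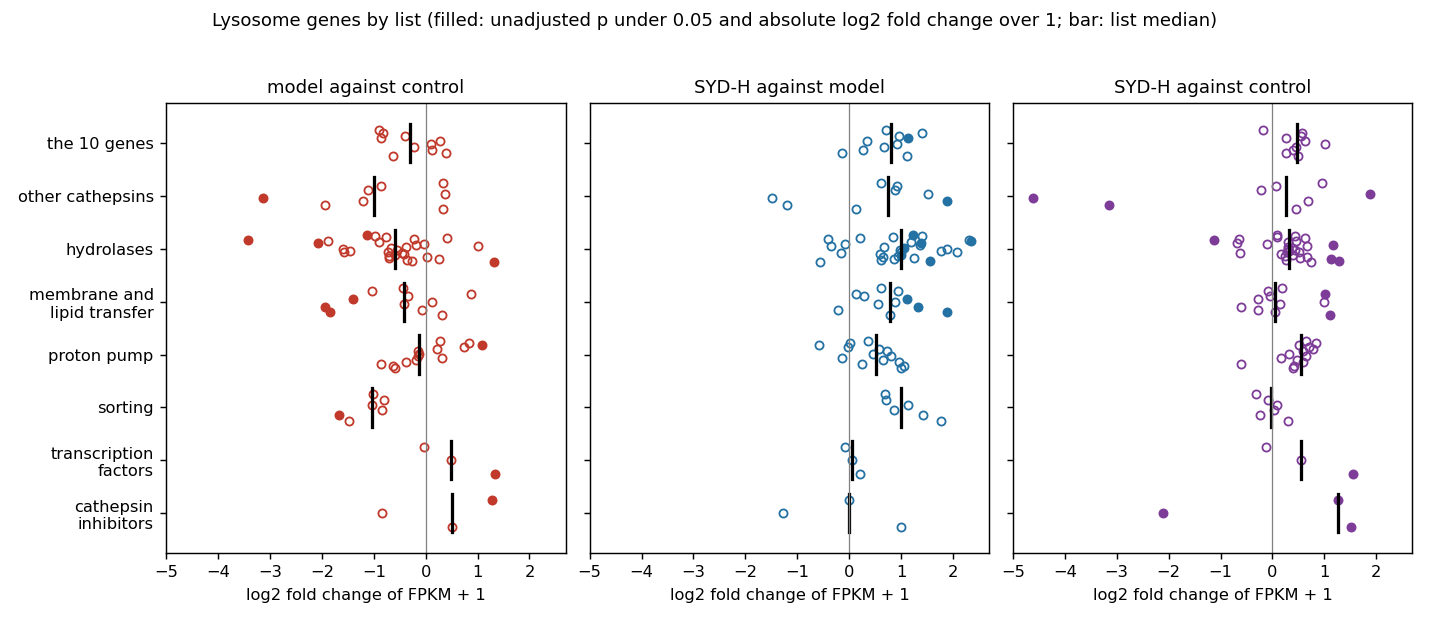
Log2 fold change of FPKM + 1 (x axis) of the 10 genes and the 74 other tested lysosomal genes by list in the 3 comparisons, with filled points for called genes and a black bar at the list median. Between SYD-H and model the bars of the 10 genes, the hydrolases, and the sorting genes lie at 0.81, 0.99, and 1.00, and those of the transcription factors and inhibitors near 0.

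Cells rich in lysosomes can carry such transcripts, so their markers are given beside these values. The 11 osteoclast markers, which include Ctsk and Acp5, summed to 640 to 1098 FPKM in control, 462 to 1831 in model, and 2057 to 2760 in SYD-H libraries. Between SYD-H and model 6 of the 11 were called higher, beside 3.62% of all genes, and 0 of the 11 had a limma adjusted p under 0.05. Between SYD-H and control 6 of the 11 were called higher, beside 7.25% of all genes. In that comparison 5 of the 11 were higher with a limma adjusted p under 0.05, beside 7.75% of all genes. Their median log2 fold changes were −0.27, 1.47, and 1.29 in the 3 comparisons. Calcr, Oscar, and Ocstamp were at 0 in model libraries 1 and 3, and Dcstamp in model library 1. The 12 macrophage markers summed to 153 to 191 FPKM in control, 112 to 285 in model, and 170 to 329 in SYD-H libraries. In the 3 comparisons 0, 2, and 1 of the 12 macrophage markers were called higher and 0 lower, beside 3.55%, 3.62%, and 7.25% of all genes called higher. Of these, Marco was at 0 in all libraries and Cd14 in model library 1. The 9 osteoblast markers summed to 1060 to 1586 FPKM in control, 588 to 2549 in model, and 2641 to 3948 in SYD-H libraries, with 2 called higher and 1 lower between SYD-H and control (median log2 fold change 0.78). The 9 synovial fibroblast markers summed to 2013 to 4630 FPKM in control, 1311, 5836, and 924 in model, and 4216 to 7481 in SYD-H libraries, with 3 called higher between SYD-H and control. The 7 skeletal muscle markers summed to 8.19 to 787 FPKM over the 9 libraries, with 0 called. The erythroid markers summed to 6563 to 16310 FPKM in control, 38220, 296, and 42470 in model libraries 1, 2, and 3, and 1312 to 13580 in SYD-H libraries. For the neutrophil markers the sums were 3027 to 5812 in control, 7962, 69.8, and 1978 in model, and 541 to 3430 in SYD-H libraries. Model libraries 1 and 3 thus lay above every control library for the erythroid sum, and model library 1 for the neutrophil sum. The B-cell markers summed to 280 to 367, 16.9 to 58.9, and 17.3 to 48.2 FPKM. The part of these cell types in the values of the 10 genes was not tested.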

How the data were processed

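RNA of cartilage was sequenced in 9 libraries, 3 each for control, model, and SYD-H. The authors aligned reads with HISAT2 2.0.5 and deposited FPKM per gene, and their library sizes differed between libraries by a scaling that is not described. The submitters' processing notes name a human genome build, while the gene identifiers are those of rat, so the build behind the coordinates is not given in the sources used here. Because the deposited FPKM are whole multiples of what 1 read is worth (100% of values within 0.1 of a whole number), reads per gene were recovered for depth, for shares of reads, and for voom. The rescalings were made on the FPKM. The authors' own comparisons were not used, and 0 value columns were left out.

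Genes averaging 0.5 FPKM or more over the 9 libraries were tested on log2(FPKM + 1), with a fold change that understates that of low genes, by limma 3.58.1 (R 4.3.3) with empirical Bayes moderation, using only the 2 groups of each comparison and Benjamini-Hochberg adjustment over all tested genes. All limma intervals, SEs, and p-values in the report come from these fits. Single shares were compared by exact two-sided permutation tests. Tables were handled with Python 3.11.15, pandas 2.3.3, and numpy 2.4.6. The fits were tested on simulated data.

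The members, the lists of other lysosomal genes and the macrophage, osteoclast, osteoblast, chondrocyte, neutrophil, B-cell, erythroid, synovial fibroblast, skeletal muscle, and photoreceptor markers, and the tests were chosen with earlier results of these data known. Beside the 10 genes, the text names the 3 most abundant genes of each lysosomal list and the 5 genes most like the mean of the 10. It also names up to 5 genes of these lists per comparison, those of the largest absolute log2 fold change with an adjusted p under 0.05. Other markers are named where they were at 0, and Col2a1, Acan, and Tcirg1 as examples. Alternatives were a pseudocount of 0.1, no filter, a minimum mean of 1, rescaling to TPM or to genes outside the mitochondrial genome, quantile normalization, 1 fit of all 9 libraries, a replicate block, voom, leaving out each library, and only libraries under 50% mitochondrial reads.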

Additional observations from a re-analysis of the deposited data

How the results depend on the processing

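The number of the 10 genes called between model and control was 0 and became 9 with TPM (9 lower, as were 74.9% of all tested genes), 1 with rescaling to genes outside the mitochondrial genome and 1 with quantile normalization (Psap in both, with 13.8% and 7.87% of all genes called lower), and 1 with only libraries under 50% mitochondrial reads, a setting chosen after seeing the data (10.5% of all genes called higher). Leaving out 1 library at a time gave 0 to 3, with 3 without model library 2. Between SYD-H and model it was 1 and became 0 without a filter, with TPM, and with the libraries under 50%, and 2 with quantile normalization, with 1 fit of all 9 libraries, and with the replicate block (2.37%, 7.51%, and 3.25% of all genes called higher), and 0 to 4 on leaving out 1 library (13.8% of all genes called higher without model library 2). Outside the mitochondrial genome it stayed 1, with Lamp1 in place of Ctsz. For SYD-H against control the number was 0 and became 1 with TPM (lower, as were 42.5% of all genes), with voom, and with the libraries under 50% (11.8% and 8.86% of all genes called higher), and 0 to 1 on leaving out 1 library. In this comparison the libraries under 50% give the same fit as leaving out SYD-H library 3, although both are counted among the settings. With an adjusted p under 0.05 over the 3 groups, 0 became 8 with TPM (53.6% of all genes), 3 with the libraries under 50% (25.8% of all genes), and 0 to 2 on leaving out 1 library, where the share of all genes ran from 0.0360% without control library 1 to 18.7% without model library 2, which gave the 2.

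Replicate numbers did not pair the libraries, since same-numbered libraries correlated between −0.267 and 0.194 in their deviations from the group means. With the replicate block, Ctsa (1.12) joined Ctsz (1.13) among the genes called between SYD-H and model (limma adjusted p = 0.702 for both), and the block changed no other call of the 10 genes. Over members and settings, a gene kept both the sign of its log2 fold change and its status as called or not called in 129 cases between model and control (19 turned in sign), 137 between SYD-H and model (7 turned), and 147 between SYD-H and control (9 turned). The sign turned between model and control for Ctsb with TPM (−2.81) and quantile normalization (−0.13), for Ctsd with TPM (−3.05), outside the mitochondrial genome (−0.12), and by quantile (−0.13), for Ctsl with TPM (−2.89) and outside the mitochondrial genome (−0.13), and for Ctss with TPM (−2.82) and voom (−0.14). With only libraries under 50% it turned for Ctsa (0.27), Ctsh (0.12), Ctss (−0.56), Ctsz (0.063), Lamp1 (0.21), and Lamp2 (0.58). Leaving out 1 library gave −1.09 to 0.037 for Ctsa, −0.39 to 0.077 for Ctsh, and −0.48 to 0.53 for Ctsl. Between SYD-H and model, Ctsb turned with TPM (1.52), outside the mitochondrial genome (0.069), by quantile (0.35), and with the libraries under 50% (0.42), and leaving out 1 library gave −0.30 to 0.087 for Ctsb and −0.059 to 0.57 for Ctss. Between SYD-H and control, TPM turned Ctsa (−1.04), Ctsb (−1.29), Ctsd (−1.15), Ctsh (−1.09), Ctsl (−0.47), Ctss (−0.88), Ctsz (−1.28), Lamp1 (−0.98), and Lamp2 (−0.88). On recovered reads the share differed by 0.141 percentage points for Ctsh between model and control and by −0.117 for Ctsb between SYD-H and control. TPM counts mitochondrial reads in each total by its construction and moved all genes, with medians of −2.60 in the model and −1.31 in the SYD-H group against control, so the signs under TPM carry that shift, and the cause of the other changes was not tested. The fewest reads on any of the 10 genes were 55 of Lamp2 and 100 of Ctsl, both in model library 1.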
